A study of Mus musculus with 10 samples.

Results

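VEGF signalling in cultured brain endothelial cells was described through 10 genes, chosen by name from the platform annotation of the array: the receptors Kdr, Flt1 and Flt4, the neuropilins Nrp1 and Nrp2, the ligands Vegfa, Vegfb, Vegfc and Pgf, and Esm1. Each had 1 feature among the 23111 features that carried a gene symbol. The cells were bEnd3, a mouse brain endothelial line immortalised with polyoma middle T antigen. In 5 samples a lentivirus with an EF1α promoter had brought in a codon-optimized cDNA of mouse Gata4 ahead of an IRES, mCherry, a self-cleaving peptide and puromycin resistance, and in 5 samples (empty vector, EV) the same vector lacked the cDNA; both groups were selected with puromycin at 2 µg/ml. Samples of a group are titled as biological replicates, but nothing says that each came from its own transduction, so p-values measure only the spread between these samples.

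VEGFs are secreted dimers that act on receptor tyrosine kinases of endothelium. VEGFA signals mainly through VEGFR2 (Kdr), while VEGFR1 (Flt1) binds VEGFA, VEGFB and PlGF (Pgf) tightly but signals weakly and can act as a trap, and VEGFR3 (Flt4) is the receptor of VEGFC and VEGFD that is best known from lymphatic vessels. Neuropilins have no kinase of their own and serve as co-receptors of VEGFs and of class 3 semaphorins. GATA4 is a zinc finger transcription factor, and the series title places it in the differentiation of organ-specific endothelium. Comparing the groups therefore asks how the VEGF genes of a brain endothelial line stand when GATA4 is added.

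All 3 receptor genes were lower in the Gata4 samples, Kdr 2.26-fold, Flt4 1.77-fold and Flt1 1.33-fold, and Nrp1 was 2.07-fold higher. Among the ligands Pgf rose 1.36-fold and Vegfb 1.16-fold, while Vegfa and Vegfc did not pass the test. Esm1, which encodes the secreted proteoglycan endocan of sprouting vessels, fell 3.25-fold. In all, 7 of the 10 genes passed limma's test at an adjusted p under 0.05, where 25.6% of all genes did. Of these 3 were higher (12.4% of all genes) and 4 lower (13.2% of all genes), and for the same 7 genes no Gata4 value fell within the EV range (21.1% of all genes). All 10 genes had mean levels above the median feature in both groups, a range in which 46% of genes passed and 38.6% had no overlap. Of the genes that passed, Nrp1 was at least 2-fold higher (1.76% of all genes) and Kdr and Esm1 at least 2-fold lower (1.4% of all genes). The median of the 10 changes was 0.03 on the log2 scale, against -0.01 over all genes. When the arrays were scaled to endothelial markers instead, the 4 falls and 3 rises kept their direction and passed, and Nrp2 also passed, as higher. With that scaling 77.3% of all calls were rises, against 48.3% as deposited, and the median gene moved from -0.01 to 0.11.

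The cells carried the markers of endothelium. The 10 marker genes had mean levels between 8.90 (Tek in EV) and 13.8 (Cdh5 in EV). Of these, 3 passed as higher and 4 as lower, with Tek 2.89-fold higher, Robo4 2.11-fold lower and Cldn5 2.06-fold lower. The mean over the list lay between 11.34 and 11.37 in the Gata4 samples and between 11.38 and 11.56 in the EV samples. Of 30 markers of pericytes, fibroblasts, astrocytes, macrophages and neurons, 24 lay below the median gene in both groups, although a low feature does not show that a gene is silent: that of Gapdh, which every cell uses and which was picked after its values were seen, stood at 3.24 and 3.19. Of these lists the pericyte and smooth muscle one ranged from 3.86 to 3.91 in the Gata4 and 3.80 to 4.0 in the EV samples, that of fibroblasts from 3.68 to 3.83 and 3.78 to 4.04, that of astrocytes from 3.15 to 3.35 and 3.18 to 3.37, that of macrophages from 3.88 to 3.99 and 4.02 to 4.13, and that of neurons from 3.84 to 4.23 and 3.56 to 3.75. Single markers passed the test in these lists: Rgs5, Dcn, Adgre1 and Tubb3 were higher and Acta2, Pdgfra and Cd68 lower. Among them Tubb3 was 2.43-fold higher (3.25 to 4.53), Cd68 2.33-fold lower (8.53 to 7.30) and Pdgfra 2.02-fold lower (5.43 to 4.42). The part of these lists in the results was not tested. In such bulk RNA fewer cells of a kind and less RNA per cell cannot be told apart. The Gata4 feature itself differed by only 0.34 ± 0.09 (SE) between overlapping groups (limma, adjusted p = 0.017). The transgene was codon-optimized, so this feature need not read it.

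Samples EV 1 and EV 2 lay apart from the other EV samples on the second principal component, at -12.8 and -14.4 against 5.55 to 13.3. They held the 2 lowest EV values of Nrp1 and Vegfc and the 2 highest of Esm1. A result whose call ends or whose value moves by over 1.5 times without them is given with both values.

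**Figure D1:**
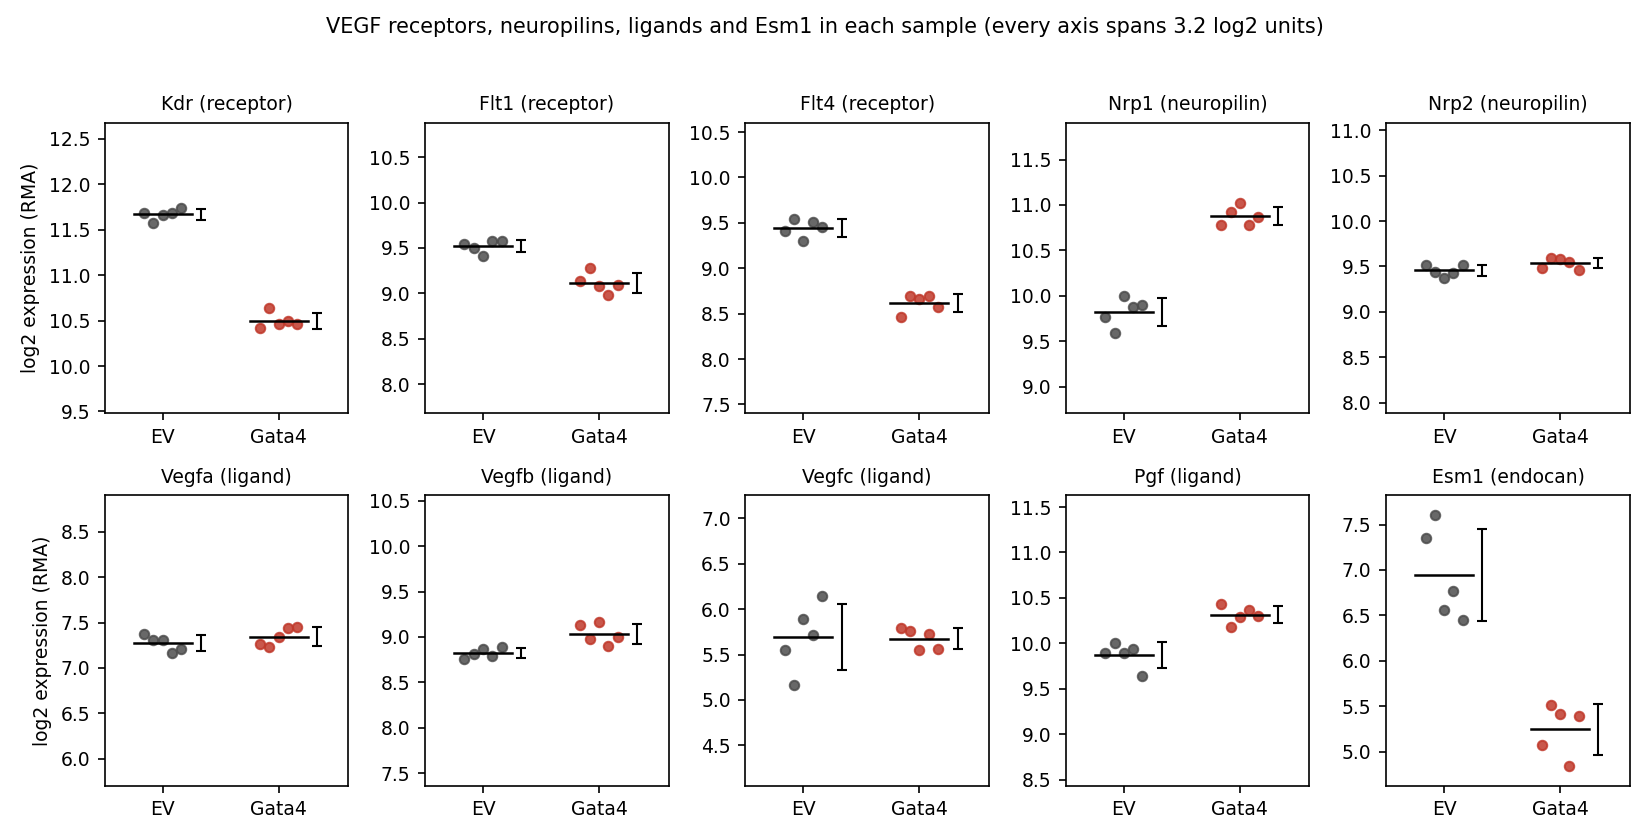
Log2 expression (RMA) of the 10 genes in each of the 5 EV samples (grey) and 5 Gata4 samples (red), with the group mean as a line and the SD as a bar; all panels span the same number of log2 units. The receptors and Esm1 stand lower and Nrp1 and Pgf higher in every Gata4 sample, and the groups overlap for Nrp2, Vegfa and Vegfc.

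The 250 bases before the RefSeq start (GRCm38.p6) are shown for Flt4, Esm1, Vegfa and the remaining ligand Vegfd. Flt4 and Esm1 fell, Vegfa did not pass the test and Vegfd rose. These windows lie outside the span of their gene. They are chr11:49609429-49609678 on the plus strand (Flt4), chr13:113209409-113209658 on the plus strand (Esm1), chr17:46032378-46032627 on the minus strand (Vegfa) and chrX:164373272-164373521 on the plus strand (Vegfd). The windows of Nrp2 and Vegfc, which did not pass the test, and of Vegfb, which rose, also lie outside their gene. They are not shown and hold no GATA letters. Capitals mark the GATA letters (NGATAA or NGATAG with N being A or T) and the ETS core (GGAA), each on either strand.
Flt4: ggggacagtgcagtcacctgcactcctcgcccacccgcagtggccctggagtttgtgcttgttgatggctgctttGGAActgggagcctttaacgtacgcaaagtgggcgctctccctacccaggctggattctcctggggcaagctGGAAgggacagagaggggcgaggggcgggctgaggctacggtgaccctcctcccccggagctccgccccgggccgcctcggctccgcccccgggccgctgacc
Esm1: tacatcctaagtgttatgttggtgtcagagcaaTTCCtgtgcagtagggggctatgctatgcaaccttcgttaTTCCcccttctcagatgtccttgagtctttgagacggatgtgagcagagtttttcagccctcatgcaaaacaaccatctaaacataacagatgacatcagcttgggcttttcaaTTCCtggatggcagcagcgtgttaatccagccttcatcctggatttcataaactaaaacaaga
Vegfa: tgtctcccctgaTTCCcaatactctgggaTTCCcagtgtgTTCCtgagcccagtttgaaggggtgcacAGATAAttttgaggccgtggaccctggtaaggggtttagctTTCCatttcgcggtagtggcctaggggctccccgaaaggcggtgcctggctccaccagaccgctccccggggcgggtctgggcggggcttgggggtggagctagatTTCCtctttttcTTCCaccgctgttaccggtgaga
Vegfd: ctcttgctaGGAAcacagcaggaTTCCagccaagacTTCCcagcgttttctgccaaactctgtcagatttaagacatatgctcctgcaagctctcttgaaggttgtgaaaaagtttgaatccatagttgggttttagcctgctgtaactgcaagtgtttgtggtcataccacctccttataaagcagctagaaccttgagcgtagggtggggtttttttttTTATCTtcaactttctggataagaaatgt
All 10 genes were matched, with 12 starts in all. Of these windows 6 lie outside the gene and 6 lie inside its longest RefSeq model, whose start is 427 to 7214 bases upstream of theirs: those of Kdr, Flt1 and Nrp1, both of Pgf and the second of Vegfa. These 6 may hold transcribed sequence. The GATA letters stood before 2 of these 12 starts (16.7%), against 26.5% of all 32851 starts of the table. One was the Vegfa window above, ending 177 bases before the start, and the other was a start of Pgf within its longest model, with AGATAG ending 55 bases before it. The letters were in neither of the windows of Flt4 and Esm1, which lie outside the gene, nor in those of Kdr, Flt1 and Nrp1, which lie inside the longest model. In the Vegfd window they stood on the opposite strand, ending 24 bases before the start. The ETS core, which is short, stood before 10 of the 12 starts (83.3%) and before 93.4% of all starts. The hypoxia letters ACGTG stood before 1 of the 12, the second start of Vegfa, which lies 7214 bases inside the longest model and not upstream of the gene (16.6% of all starts), and the SOX letters ACAAT before 0 (27.7% of all starts). Matches of different motifs overlapped in 0 of 13 windows, that of Vegfd included. G and C made up 59.2 to 76.4% of the bases in all of the 12 windows but that of Esm1 (44%). The median over all starts was 52.4%. The part of this base content in the shares was not tested. A match is a run of letters and not a binding site.

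Kdr encodes VEGFR2, through which VEGFA drives endothelial growth and permeability. Its log2 level was 11.69, 11.58, 11.66, 11.68 and 11.74 in EV samples 1 to 5 and 10.42, 10.64, 10.46, 10.50 and 10.46 in Gata4 samples 1 to 5. The lowest EV sample stood 0.94 above the highest Gata4 sample, so the groups were far apart. The log2 change was -1.18 ± 0.05 (SE), a fall of 2.26-fold with a 95% interval of 2.08 to 2.45 (limma, adjusted p = 4.6e-09). A larger absolute change was measured for 2.35% of all genes.

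Flt4 encodes VEGFR3. It stood at 9.41, 9.54, 9.30, 9.51 and 9.46 in the EV samples and at 8.47, 8.70, 8.66, 8.69 and 8.57 in the Gata4 samples, with a gap of 0.60 between the groups. The log2 change was -0.83 ± 0.06 (SE), a fall of 1.77-fold with an interval of 1.61 to 1.95 (limma, adjusted p = 5.6e-07). Flt1, which encodes VEGFR1 and its soluble trap form, stood at 9.54, 9.50, 9.41, 9.58 and 9.58 in the EV samples and at 9.13, 9.28, 9.08, 8.98 and 9.09 in the Gata4 samples. The gap was 0.14, and the log2 change of -0.41 ± 0.06 (SE), a fall of 1.33-fold with an interval of 1.21 to 1.45, passed the test (limma, adjusted p = 0.00020). The table has 1 value for Flt1, so the soluble and the full-length transcript were not told apart.

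Receptors therefore fell by unequal amounts, which was tested as the log2 difference of 2 genes within each sample, over 10 pairs of genes and by a two-sided exact permutation test over all assignments of the samples (n = 5 per group). The smallest p this allows is 0.0079, or 0.0088 when adjusted over the 10 pairs. Relative to Kdr, Flt1 was 1.70-fold higher in the Gata4 samples (difference of 0.77 ± 0.05 SE; exact p = 0.0079, adjusted 0.0088) and Flt4 1.27-fold higher (0.35 ± 0.07 SE; exact p = 0.0079, adjusted 0.0088). In both pairs the groups did not overlap in these differences. For Flt1 minus Kdr the ranges of the single genes already kept the groups apart, so its p was fixed by them.

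Nrp1, the co-receptor that VEGFR2 shares with semaphorin signalling, moved the opposite way. It stood at 9.76, 9.59, 9.99, 9.88 and 9.90 in the EV samples and at 10.78, 10.93, 11.02, 10.78 and 10.87 in the Gata4 samples. Every Gata4 sample was higher, by at least 0.79, and the rise was 1.05 ± 0.08 (SE), or 2.07-fold with an interval of 1.84 to 2.33 (limma, adjusted p = 4.1e-07). Without EV 1 and EV 2 it was 0.95 (limma, adjusted p = 2.8e-06). Nrp2, the neuropilin of veins and lymphatic vessels that works with VEGFR3, stood between 9.38 and 9.52 in the EV samples and between 9.46 and 9.59 in the Gata4 samples. These ranges overlap, and its log2 difference of 0.08, with an interval of -0.03 to 0.19, did not pass (limma, adjusted p = 0.29). Scaled to endothelial markers it was 0.20 and passed (limma, adjusted p = 0.033).

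The 2 neuropilins also differed in their change from each other and from Kdr. Nrp1 rose 1.96-fold relative to Nrp2 (0.97 ± 0.08 SE; exact permutation p = 0.0079, adjusted 0.0088). Within a sample the difference of Nrp1 minus Kdr was -1.85 ± 0.12 (SD, n = 5) in the EV group and 0.38 ± 0.12 (SD, n = 5) in the Gata4 group, a shift of 2.23 ± 0.07 (SE) or 4.68-fold (exact permutation p = 0.0079, adjusted 0.0088). For Nrp2 minus Kdr the shift was 1.26 ± 0.05 (SE), or 2.39-fold, with the same exact permutation p of 0.0079. In each of these neuropilin pairs the ranges of the single genes already kept the groups apart. The exact p was thus fixed by the single-gene results and adds no evidence to them. A difference between features does not say which gene has more RNA, and only its shift between groups is read.

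**Figure D2:**
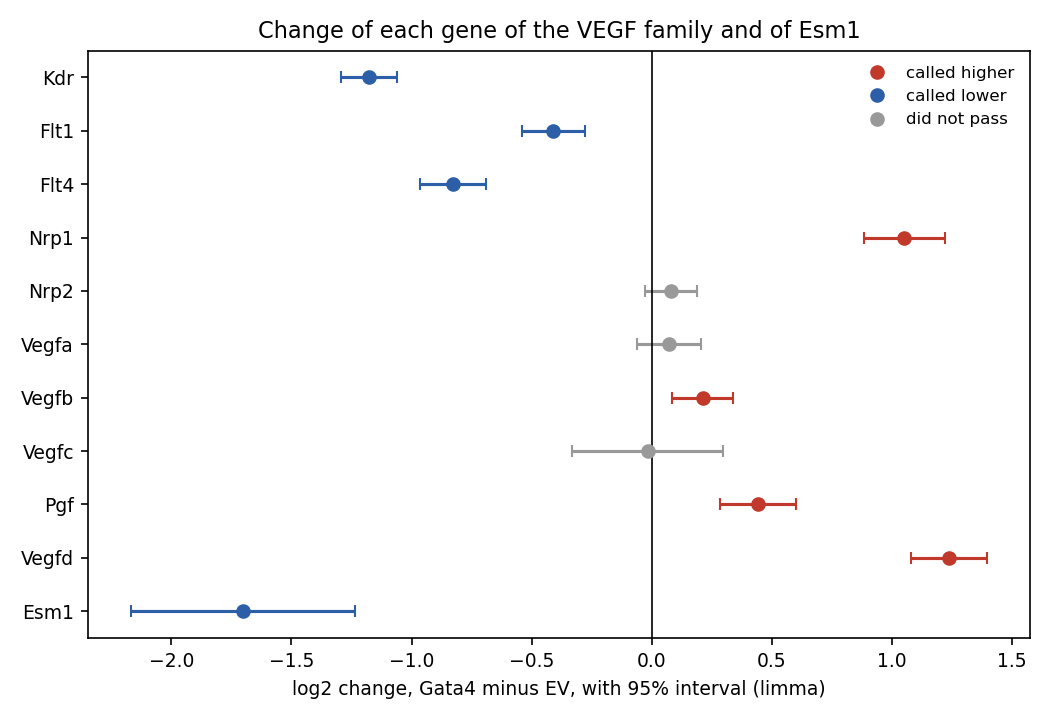
Log2 change (Gata4 minus EV) of the 10 genes and of Vegfd with the 95% interval of limma; blue genes passed the test as lower, red genes as higher and grey genes did not pass. The intervals of the 3 receptors do not meet that of Nrp1, and those of Nrp2, Vegfa and Vegfc include 0.

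Vegfa encodes the main ligand of VEGFR2, a hypoxia-induced growth factor. It stood at 7.38, 7.31, 7.31, 7.16 and 7.21 in the EV samples and at 7.26, 7.23, 7.35, 7.44 and 7.45 in the Gata4 samples. The groups overlap widely, and the difference of 0.07 had an interval of -0.06 to 0.21 (limma, adjusted p = 0.49; 0.12 without EV 1 and EV 2), which includes no change as large as that of any receptor. Vegfc, a ligand of VEGFR3, ranged from 5.17 to 6.14 in the EV samples and from 5.55 to 5.79 in the Gata4 samples. Its spread was wider in the EV group (SD 0.37, n = 5) than in the Gata4 group (SD 0.11, n = 5). The difference of -0.02 had an interval of -0.33 to 0.30 (limma, adjusted p = 0.96), and it was -0.24 without EV 1 and EV 2 (limma, adjusted p = 0.13) and 0.11 when scaled to endothelial markers.

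Pgf and Vegfb encode the ligands that bind VEGFR1 but not VEGFR2. Pgf stood at 9.89, 10.004, 9.89, 9.94 and 9.64 in the EV samples and at 10.43, 10.18, 10.29, 10.37 and 10.30 in the Gata4 samples. The groups were 0.17 apart at their nearest samples, and the rise was 0.44 ± 0.07 (SE), or 1.36-fold with an interval of 1.22 to 1.51 (limma, adjusted p = 0.00047). Vegfb stood at 8.76, 8.81, 8.87, 8.79 and 8.88 in the EV samples and at 9.13, 8.98, 9.17, 8.90 and 9.00 in the Gata4 samples. Here the nearest samples were only 0.02 apart, and the rise of 0.21 ± 0.06 (SE), or 1.16-fold (limma, adjusted p = 0.017), was 0.19 and no longer passed without EV 1 and EV 2 (limma, adjusted p = 0.091).

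Vegfd encodes the other ligand of VEGFR3 and was not among the 10 genes. It stood between 4.36 and 4.72 in the EV samples and between 5.67 and 5.85 in the Gata4 samples, 0.95 apart. The rise of 1.24 ± 0.07 (SE), or 2.36-fold with an interval of 2.11 to 2.63, passed (limma, adjusted p = 5.3e-08). The EV mean of 4.52 was close to the median of all features (4.16), where values may be background, and the fold can then be understated.

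Ligands were then set against their receptors. Vegfa relative to Kdr was 2.38-fold higher in the Gata4 samples (1.25 ± 0.08 SE), Pgf relative to Flt1 1.80-fold (0.85 ± 0.10 SE), Vegfc relative to Flt4 1.75-fold (0.81 ± 0.17 SE) and Vegfb relative to Flt1 1.54-fold (0.62 ± 0.07 SE). In each of these 4 pairs the groups did not overlap (exact permutation p = 0.0079, adjusted 0.0088). The ranges of the single genes already fixed this, so the p adds no evidence to the single-gene results. For Vegfa, Vegfb and Vegfc the larger part of the shift was the receptor's fall, and for Pgf both genes changed by similar amounts, 0.44 and -0.41. Without EV 1 and EV 2 the shift of Vegfc against Flt4 was 0.57 (exact permutation p adjusted over the pairs = 0.020). Vegfa minus Vegfb shifted by -0.14, with an interval of -0.33 to 0.04, which did not pass (exact permutation p = 0.18), and by -0.07 without EV 1 and EV 2.

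**Figure D3:**
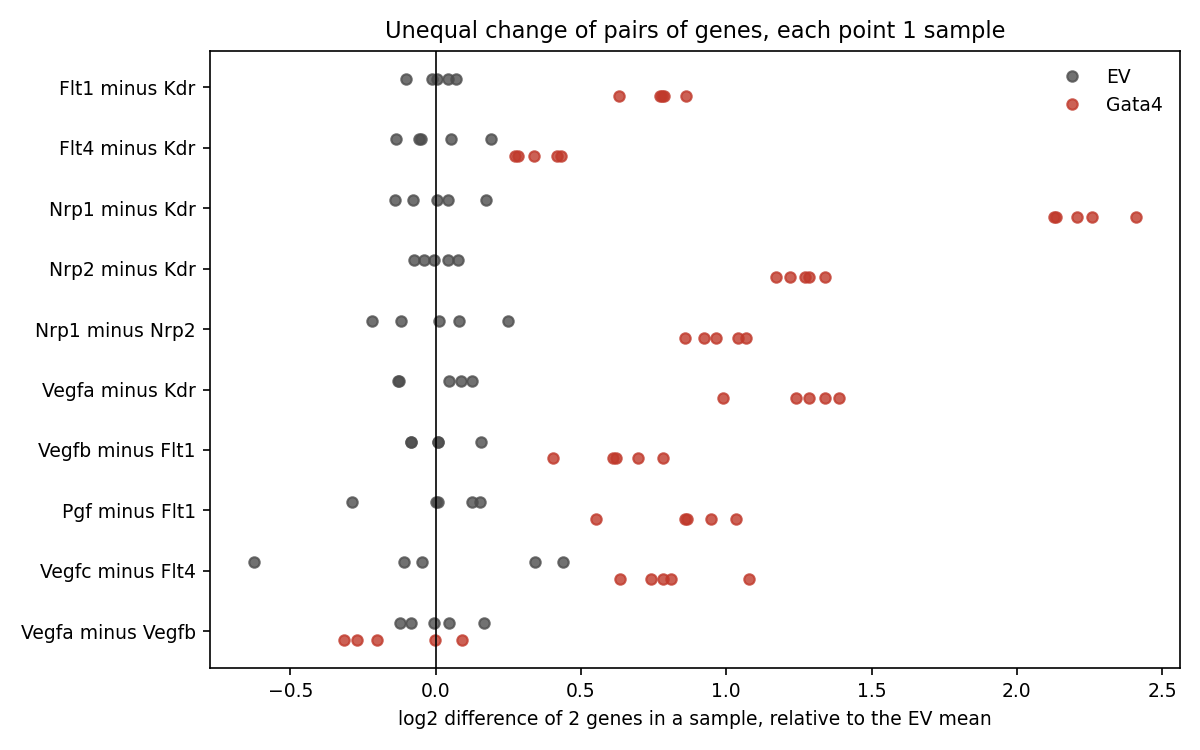
Log2 difference between 2 genes within each sample, relative to the EV mean of the same pair, for the 10 pairs; each point is 1 sample, EV in grey and Gata4 in red. In 9 pairs the groups do not overlap, with Nrp1 minus Kdr the farthest apart, and in Vegfa minus Vegfb they do. In all of the 9 but Flt4 minus Kdr the ranges of the single genes already kept the groups apart.

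Esm1 showed the largest change of the 10 genes. It stood at 7.35, 7.61, 6.56, 6.77 and 6.45 in the EV samples and at 5.07, 5.51, 5.41, 4.84 and 5.39 in the Gata4 samples. Both groups spread more than the receptors did, with EV 1 and EV 2 on top, and still lay 0.94 apart. The log2 change was -1.70 ± 0.21 (SE), a fall of 3.25-fold with an interval of 2.36 to 4.49 (limma, adjusted p = 5.3e-05). Without EV 1 and EV 2 the log2 change was -1.35 (limma, adjusted p = 5.7e-05).

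VEGFA is known to induce a set of genes in cultured endothelial cells, and most of those that passed were lower. Of 15 such genes 8 were lower, 1 was higher and 6 did not pass, with a median change of -0.33 against -0.01 over all genes. The share called was 60%, against 25.6% of all genes and 46% of those at or above the median level. A second gene was called higher without EV 1 and EV 2. This list and those below were chosen with earlier results of these data known, so their shares are description and no test. The prostaglandin synthase gene Ptgs2 fell 3.36-fold, the protease gene Adamts1 2.70-fold and the homeobox gene Hlx 2.13-fold. Plat, which encodes tissue plasminogen activator, went the other way and rose 8.11-fold, from 7.69 ± 0.19 to 10.71 ± 0.07 (SD, n = 5 each; limma, adjusted p = 3.2e-11). Genes of tip cells, which lead vessel sprouts, were lower in 6, higher in 2 and not passing in 2 of 10 cases. Their median change was -0.46, and 80% were called, against 25.6% of all genes and 46% of those at or above the median level. The urokinase receptor gene Plaur fell 3.21-fold, the Notch ligand gene Dll4 2.63-fold and the apelin gene Apln 1.71-fold. Angpt2, a ligand of TIE2, rose 1.99-fold. Kcne3, a potassium channel subunit gene, rose by 0.30 with overlapping groups and did not pass in the exact rank-sum test (adjusted p = 0.17). It also did not pass without EV 1 and EV 2 (0.18; limma, adjusted p = 0.16), without any one of Gata4 1, 2 and 4 or EV 1 and 2, or with a replicate block (limma, adjusted p = 0.0585).

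Genes that act around the receptors went both ways. Of 21 signalling intermediates analysed here 5 were higher, 5 lower and 11 did not pass (median 0.04). At 47.6% the share called was near the 46% of genes at or above the median level (25.6% of all genes). Prkca, the protein kinase C alpha gene, was 2.34-fold lower, the heat shock protein gene Hspb1, a target of the p38 branch, 2.23-fold, and the paxillin gene Pxn 1.34-fold. Mapkapk2, which encodes the kinase upstream of the Hspb1 protein, was 2.09-fold higher, the calcineurin subunit gene Ppp3ca 1.61-fold and Nfatc1, a factor that calcineurin activates, 1.57-fold. Scaled to endothelial markers, 10 of the intermediates were higher. Of 20 genes for partners, trafficking and phosphatases of the receptors 7 were higher, 8 lower and 5 did not pass (median 0.01), and 9 were higher and 5 lower when scaled to endothelial markers. The share called was 75%, against 25.6% of all genes and 46% of those at or above the median level. Mcam, a VEGFR2 co-receptor, fell 3.00-fold, from 11.02 ± 0.12 to 9.43 ± 0.10 (SD, n = 5 each), Myof (myoferlin) 1.85-fold and the phosphatase gene Ptpn1 1.62-fold. The phosphatase gene Ptprj rose 2.28-fold and the endocytic adaptor gene Dab2 1.73-fold. Rab4a, a recycling GTPase gene, rose by 0.55 between overlapping groups and at low levels (3.35 and 3.90), and did not pass in the exact rank-sum test (adjusted p = 0.11), without any one of Gata4 1, 3 and 5 or EV 1, 2, 4 and 5, or without EV 1 and EV 2 together (0.55; limma, adjusted p = 0.12).

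Oxygen-sensing genes, which control Vegfa, were lower in 5, higher in 2 and not passing in 3 of 10 cases (median -0.15; 70% called, against 25.6% of all genes and 46% of those at or above the median level). Scaled to endothelial markers, 2 were lower. Epas1, which encodes HIF2 alpha, fell 2.13-fold, from 11.32 ± 0.05 to 10.23 ± 0.07 (SD, n = 5 each), the prolyl hydroxylase gene Egln3 2.00-fold and the coactivator-binding gene Cited2 1.28-fold. Cited2 did not pass when scaled to endothelial markers (-0.24; limma, adjusted p = 0.095). The ubiquitin ligase gene Vhl rose by 0.28, and Hif1an, which encodes an asparagine hydroxylase of HIF, by 0.19 with overlapping groups and an adjusted p of 0.11 in the exact rank-sum test. Hif1an lost its call without any one of Gata4 2, 3, 4 and 5 or EV 1, 2, 4 and 5, and without EV 1 and EV 2 together (0.16; limma, adjusted p = 0.15). It was also lost with a replicate block (limma, adjusted p = 0.073), with array weights (limma, adjusted p = 0.052) and when scaled to reference genes (limma, adjusted p = 0.11). Beside these, Vegfa had the difference of 0.07 given above.

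Semaphorins and plexins, which share the neuropilins, were lower in 6, higher in 2 and not passing in 4 of 12 cases (median -0.17; 66.7% called, against 25.6% of all genes and 46% of those at or above the median level). Sema3e rose 5.68-fold, from 7.63 ± 0.30 to 10.13 ± 0.08 (SD, n = 5 each; limma, adjusted p = 6.0e-09). Its protein is known to bind plexin D1 directly, and Plxnd1, picked after its values were seen, had a log2 difference of -0.06 that did not pass (limma, adjusted p = 0.71). Sema3d rose by 0.31 at low levels (2.91 and 3.22). Sema3a, a ligand of neuropilin 1, fell 2.01-fold, Sema3g 2.00-fold and the receptor gene Plxna2 2.24-fold.

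Of 18 genes for transcription factors known to act at VEGF receptor genes, 7 rose, 5 fell and 6 missed the threshold (median -0.02; 66.7% called, against 25.6% of all genes and 46% of those at or above the median level). Sox18 fell 4.73-fold, from 10.72 to 8.48 in the means, the homeobox gene Hoxb5 2.14-fold and Sox7 2.06-fold, whereas Sox17 rose by 1.32 on the log2 scale, Ets1 by 0.78 and the flow-responsive Klf4 by 0.73. Gata2, a GATA factor of endothelium, fell by 0.31 ± 0.06 (SE) and did not pass when scaled to endothelial markers (limma, adjusted p = 0.072).

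**Figure D4:**
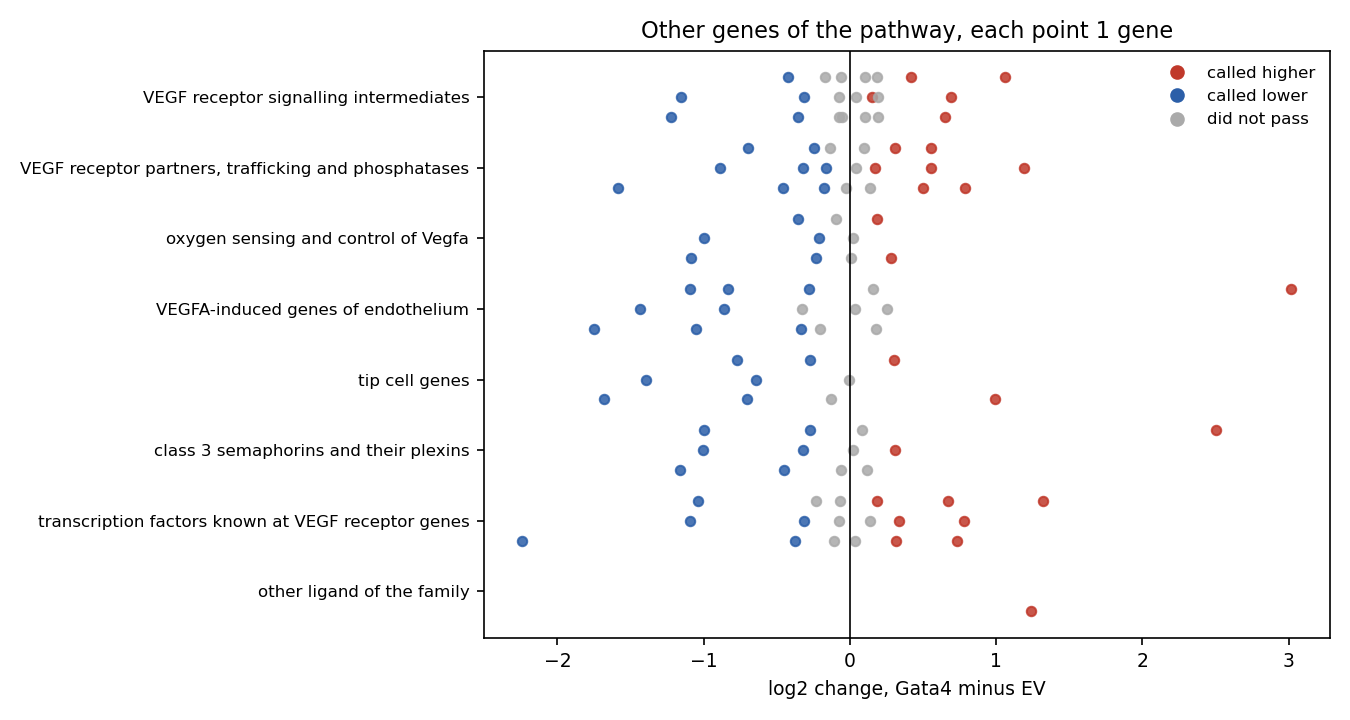
Log2 change (Gata4 minus EV) of 107 other genes of the pathway in 8 lists; each point is 1 gene, blue where it passed the test as lower, red as higher and grey where it did not pass, with points spread vertically for legibility. Of the 107 genes 27 were higher (12.4% of all genes) and 43 lower (13.2% of all genes), or 65.4% called, against 46% of genes at or above the median level, and Plat and Sema3e lie farthest to the right.

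The genes whose pattern was most like that of Kdr over the 10 samples, by the root mean square difference after taking off each gene's EV mean, were Smtn (0.075 log2 units), which encodes smoothelin, Foxm1 (0.076), which encodes a forkhead factor of the cell cycle, and Cd34 (0.080), a sialomucin gene of capillary endothelium. For Nrp1 they were the ceramidase gene Asah2 (0.080), the microtubule-binding gene Eml4 (0.089) and the death-domain gene Pidd1 (0.091). With 2 groups this measure mostly ranks genes by the size of their change, and no test was made.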

How the data were processed

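Values were deposited on a log2 scale, computed by the authors with RMA, per the submitters' processing notes. For RMA's version, the probe definition and the build, the sources used here give nothing. RMA's quantile normalization gives all arrays 1 distribution, so a change is measured against the rest of the genes. No detection call comes with it, and 5 arrays per group limit the precision. Symbols came from the platform annotation: 23111 of 23748 features had 1 symbol, 0 several and 637 none. Groups were tested by limma 3.58.1 in R 4.3.3 (functions lmFit, then eBayes) on all 23111 genes and 10 samples, with p-values adjusted by Benjamini-Hochberg, and called below 0.05. The fit was tested on simulated data. Pairs of genes were compared by exact permutation.

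The genes and lists were chosen with earlier results of these data known. Of 112 listed genes 107 were measured. Named were, per list, up to 3 called genes in each direction, 3 genes most like Kdr and Nrp1 (leaving out 2842 gene models and clone names), Gata4 and Gata2. Arrays of a group correlated at 0.9964 to 0.9977 and 0 pairs were identical. Alternatives were a variance trend, an exact rank-sum test, a replicate block, filters at the 25th percentile and the median level, array weights, scaling to reference genes or endothelial markers, and samples left out. Of the 9 reference genes 2 passed the test as higher (Sdha and Gusb) and 2 as lower (Actb and Tbp). Actb had an SD of 0 in the EV samples, and Gapdh stood at 3.24 and 3.19. These limit the scaling to reference genes as a check. Of the 10 endothelial markers 3 passed as higher and 4 as lower, which limits the scaling to those markers as well.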

Additional observations from a re-analysis of the deposited data

Results flagged for a closer look

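Samples far from the others of their group were sought in the 10 genes and the other named genes, by the gap to the nearest sample over the group's range (critical value 0.71 for 5 samples). Of 100 groups of values 3 were marked, where chance marks about 1 in 20, and none was of the 10 genes. Gata2 stood at 8.59 in EV 4, with the next EV sample at 8.72. Nfatc1 stood at 7.14 in EV 2, with the next at 7.36. Ptpn1 stood at 8.20 in Gata4 1, with the next at 8.29.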

How the results depend on the processing

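Each of the 10 genes was recomputed under 19 alternatives. Kdr, Flt1, Flt4, Nrp1, Pgf and Esm1 kept their direction and passed in all 19, with log2 changes from -1.21 to -1.05, -0.45 to -0.29, -0.86 to -0.70, 0.95 to 1.17, 0.38 to 0.56 and -1.83 to -1.35. Vegfb no longer passed without EV samples 1 and 2 (0.19), a pair chosen for this with earlier results known. Nrp2 passed when scaled to endothelial markers (0.20), and Vegfa passed in none (0.04 to 0.19). Vegfc, which never passed, changed sign when scaled to endothelial markers (0.11) and without Gata4 replicate 3 or 5 or EV replicate 3 or 5 (0.02, 0.01, 0.03 and 0.10). Without 1 sample it ranged from -0.15 to 0.10. With the same endothelial scaling 5292 of all genes were higher and 1558 lower, since the scale itself moved up by the mean fall of the markers. The 10 genes gave 4 lower calls in every alternative and 2 to 4 higher ones. Among the pathway genes 22 to 36 were higher and 32 to 46 lower.

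The replicate numbers were not taken as pairs, since the labels name nothing shared and the deviations of samples with the same number correlated at only -0.02 to 0.09. Yet 6 of the 10 samples correlated best with their own number, a hint from the data and not from the design. With a replicate block the 10 genes kept their calls (Kdr at -1.18), as did the count of 4 lower and 3 higher, and the pathway genes gave 23 higher and 41 lower calls. Of the named genes the block ended the calls of Kcne3 (adjusted p = 0.0585) and Hif1an (adjusted p = 0.073). For the pairs of genes a block means an exact sign-flip test, whose smallest p is 0.0625, so none could pass (adjusted p = 0.069 for the 9 pairs). The shifts were 0.77 for Flt1, 0.35 for Flt4, 2.23 for Nrp1, 1.26 for Nrp2 and 1.25 for Vegfa against Kdr, 0.97 for Nrp1 against Nrp2, 0.62 for Vegfb and 0.85 for Pgf against Flt1, and 0.81 for Vegfc against Flt4. The 12 other alternatives for each pair kept direction and call. The other 40 named genes changed direction in none, and 33 of their 757 values no longer passed, 9 of them of Rab4a, 13 of Hif1an, 8 of Kcne3 and 1 each of Cited2, Gata2 and Gata4. Low features without a detection call limit what can be read from Vegfd, Rab4a and Sema3d. Of the 10 genes, Esm1 in the Gata4 samples (mean 5.25) and Vegfc (5.68 in the Gata4 and 5.69 in the EV samples) stood nearest to the median of all features (4.16).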
